A study of Mus musculus with 58 samples.

Results

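PCGF3 and PCGF5 were degraded in cells that also carried a mutated SPEN SPOC domain, and chromatin-associated RNA was sequenced after 3 days of Xist expression under neural differentiation. The comparison rests on 4 of the 58 libraries of the series, chosen by their labels: 2 libraries treated with dTAG-13 and 2 untreated (ctrl), 1 of each from clone F10 and from clone F6. All 4 cultures were female mouse embryonic stem (ES) cells, hybrids of a 129S-type (Dom) and a castaneus (Cast) mouse, grown towards neural progenitor cells (NPC) for 3 days with 1 ug/mL doxycycline. In every one of them the Dom copy of Xist answered to doxycycline through a TetOn promoter, the Spen gene carried point mutations in its SPOC domain, and both PCGF3 and PCGF5 carried an FKBP12 tag through which the compound dTAG-13 directs a protein to the proteasome. The labels give dTAG-13 at 100 uM from 12 h before doxycycline, and they name no other difference between the treated and the untreated cells. The line is limited as a model in that each clone is 1 engineered line, 1 culture per clone and treatment was sequenced, and doxycycline replaced the natural control of Xist. P-values therefore measure the spread between cultures of these 2 clones. For the gene tests on day 3 that spread was taken from the 16 libraries of both clones, ES and NPC, not from the 4 alone.

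Xist RNA spreads along the chromosome that makes it and silences most of its genes. SPEN binds the A-repeat of Xist, and its SPOC domain recruits corepressors such as NCoR with the histone deacetylase HDAC3. PCGF3 and PCGF5 are alternative subunits of a variant Polycomb repressive complex, PRC1, which hnRNPK brings to the B-repeat of Xist and which places ubiquitin on histone H2A. PRC2 reads that mark and adds methyl groups to lysine residues of histone H3. The comparison asks how much of the silencing that persists without a working SPOC domain was lost once PCGF3 and PCGF5 were removed as well. The measure was the Dom share of a gene: fragments assigned to the Dom allele over fragments assigned to either allele. A share of 0 means silence of the Xist-bearing X, and equal output from both X chromosomes gives a share near 0.5.

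The 4 libraries held 11.6 to 19.4 M (mega) fragments on genes, and 46% to 48% of them were assigned to an allele. The deposited ratio table covers 246 X-linked genes, all on the centromeric side of Xist, and these had a median of 154 to 208 allelic fragments per library. The engineered genes showed the induction but not the degradation, which acts on proteins. Xist stood at 5774 CPM (counts per M fragments) in F10 ctrl, 5158 in F10 with dTAG-13, 4471 in F6 ctrl and 4292 in F6 with dTAG-13, against 67.3 to 83.5 CPM in the 4 uninduced ES libraries of the same clones. Its log2 change was -0.13 ± 0.27 (SE), which did not pass the test, with an adjusted p of 1.00 in edgeR's quasi-likelihood test. Pcgf3 RNA was 84.8 and 80.5 CPM without dTAG-13 and 87.2 and 80.7 CPM with it, Pcgf5 37 and 29.2 against 38.8 and 36.1 CPM, in F10 and F6. Spen RNA was 324 and 346 CPM in the F10 libraries and 573 and 574 CPM in those of F6, ctrl first. None of the 3 passed the test, and these RNA levels give no check of the loss of protein.

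The clones stood apart from each other on day 3 in ways that both treatments shared. The summed RNA of the 246 genes was 21211 in F10 ctrl, 22590 in F10 with dTAG-13, 28612 in F6 ctrl and 30629 in F6 with dTAG-13, in fragments per M autosomal fragments, so that F10 lay below F6 with and without dTAG-13. The X-linked genes beyond Xist showed the same order (14454 in F10 ctrl, 15341 in F10 with dTAG-13, 20653 in F6 ctrl and 21893 in F6 with dTAG-13). On chromosome 16 the Dom allele gave 51.7% of allelic fragments in F10 ctrl but 31.1% in F6 ctrl, and 51.6% and 34.3% with dTAG-13. On the other 18 autosomes the Dom percentage moved by at most 0.402 percentage points between ctrl and dTAG-13 within either clone. Their part in the allelic results was not tested.

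With dTAG-13 the Dom share of X-linked genes was higher in both SPOC mutant clones. The median Dom share over the 246 genes was 0.442 in F10 ctrl and 0.557 in F10 with dTAG-13, and 0.462 in F6 ctrl and 0.503 in F6 with dTAG-13. Both treated libraries lay above both untreated ones, and the difference was 0.115 in F10 and 0.0411 in F6. The paper interprets an upward skew in NPC samples of a clone of this line as selection for cells that lost the Cast X. The part of such loss in these values was not tested. The group means were 0.452 ± 0.0137 (SD, n = 2) and 0.53 ± 0.0386 (SD, n = 2), and the mean difference within clones was 0.0781 ± 0.0523 (SD, n = 2). An exact permutation test of these medians, taken as two-sided and without the pairing by clone, gave p = 0.333, the smallest that 2 against 2 libraries allow. In the uninduced ES cells of the same clones the median was 0.516 and 0.514 without and 0.514 and 0.523 with dTAG-13, in F10 and F6, so the 4 libraries differed by less than ctrl and dTAG-13 did in either clone on day 3.

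**Figure D1:**
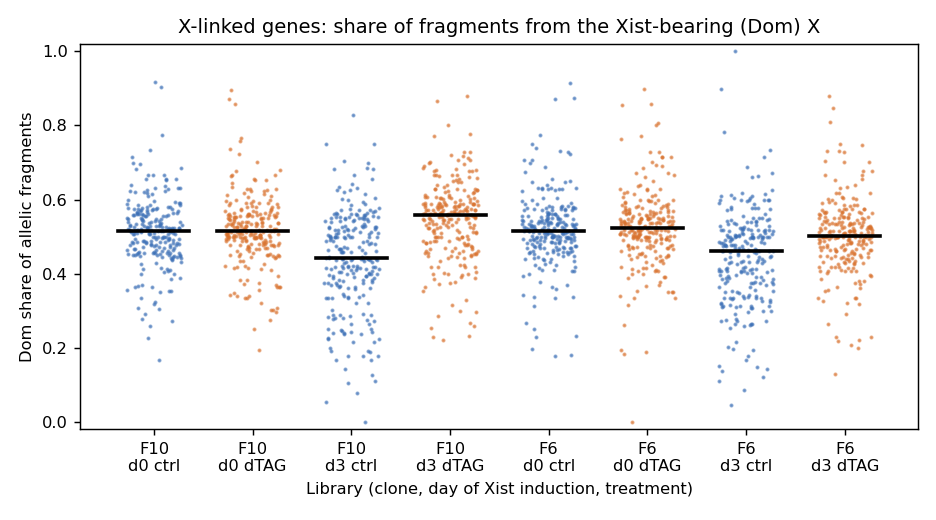
The Dom share of each of the 246 X-linked genes (dots; vertical axis, 0 to 1) is plotted for the uninduced ES (d0) and NPC day 3 (d3) libraries of clones F10 and F6, blue for ctrl and orange for dTAG-13, with the median as a black bar. On day 3 the ctrl medians, 0.442 and 0.462, lie below the dTAG-13 medians, 0.557 and 0.503, and the low tail of genes under a share of 0.25 is thinner with dTAG-13.

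The difference was wider at the low end of the distribution. Genes with a Dom share under 0.25 numbered 29 in F10 ctrl and 14 in F6 ctrl but 3 and 7 with dTAG-13. The lower quartile of the share went from 0.368 to 0.486 in F10 and from 0.365 to 0.453 in F6, and the upper quartile from 0.528 to 0.601 and from 0.517 to 0.551. In both clones the lower quartile thus moved further than the upper one.

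Single genes were tested on the counts of both alleles with edgeR's quasi-likelihood test, with the clone as a term and Benjamini-Hochberg adjustment over 13017 genes of the whole genome. Of the 243 X-linked genes with a mean of at least 10 allelic fragments (3 of the 246 had fewer), 14 had an adjusted p under 0.05 and all 14 rose with dTAG-13, 5.76% of those tested, against 0.108% of all genes tested. No autosomal gene of 12567 passed, where 201 were higher and 196 lower at an unadjusted p under 0.05. At that unadjusted level 78 X-linked genes were higher and none lower, which is 32.1% of the X-linked genes and 1.6% of the autosomal ones. The median log2 change of the allelic odds (Dom over Cast) was 0.42 over the X-linked genes, and 215 of 243 were above 0, while over autosomal genes 6291 of 12567 were above 0 with a median of 0.000202. The shares of the 2 treated libraries lay above those of both untreated libraries, with no overlap, in 129 of 243 X-linked genes (53.1%) and below them in 2. For autosomal genes 15.6% lay above and 15% below.

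The number of genes past the threshold depended on how the fit treated the clones and on single libraries. Without the clone as a term 9 X-linked genes passed. With a separate clone term in ES and NPC libraries 29 passed, and in the 4 day 3 libraries alone 61, with 21 autosomal genes. Without the F10 dTAG-13 library none passed (40 at an unadjusted p under 0.05), and without either ctrl library 4 passed. With limma on the Dom share or on the log2 odds no gene passed, with 76 and 71 of 243 genes at an unadjusted p under 0.05, and with both day 3 libraries of either clone left out 2 passed. Every call on the X in these fits was a rise, and the median log2 change stayed between 0.29 and 0.59.

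In each of the 14 genes that passed, both treated shares lay above both untreated ones. For 2610018G03Rik the shares were 0.265 and 0.216 without and 0.542 and 0.432 with dTAG-13, in F10 and F6 (chrX:50841435-50891850, plus strand, mm10; Stk26 in RefSeq, a protein kinase), where the treated clones differed most from each other in this group of genes. Its average rise was 0.247 (log2 odds change 1.60 ± 0.26 (SE), adjusted p = 0.00385, edgeR), and the ctrl ES cells of the same clones, before Xist, had shares of 0.445 and 0.468. Fhl1 stood at 0.415 (F10) and 0.355 (F6) in the ctrl libraries and at 0.64 and 0.571 in the dTAG-13 libraries (chrX:56731760-56793346, plus strand; a LIM-domain protein of muscle that also acts in signalling). The Dom share of Fam122b was 0.417 in F10 ctrl and 0.339 in F6 ctrl, and 0.601 and 0.585 with dTAG-13 (chrX:53243414-53269805, minus strand). All 3 genes rose, with each ctrl library below each dTAG-13 library. For Aff2 the shares were 0.288 and 0.274 without and 0.509 and 0.487 with dTAG-13, in F10 and F6 (chrX:69360330-69868037, plus strand); the gene encodes a nuclear protein of the AF4 family, silenced in human fragile XE syndrome. Adjusted p-values of the 4 genes ran from 0.00187 to 0.0065 in edgeR's test.

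Eda, the TNF-family ligand ectodysplasin that directs hair, tooth and sweat gland development, had the most fragments of the genes that passed, 1535 to 2783 per library. Without dTAG-13 the share of Eda was 0.237 in F10 and 0.194 in F6, and with it 0.434 and 0.401 (chrX:99975605-100400760, plus strand; log2 odds change 1.39 ± 0.15 (SE), adjusted p = 0.00293, edgeR). Its Dom fragments went from 23.1 to 47.6 CPM in F10 and from 30.5 to 87 CPM in F6, while its Cast fragments went from 74.3 to 62 CPM and from 127 to 130 CPM. The gain in share of Eda thus came with more Dom RNA in both clones, while Cast RNA was lower in F10 and slightly higher in F6. Phka1 stood at 0.346 (F10) and 0.35 (F6) in the ctrl libraries and at 0.531 and 0.5 in the dTAG-13 libraries (chrX:102513974-102644246, minus strand); it encodes the muscle alpha subunit of phosphorylase kinase, an enzyme of glycogen breakdown.

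For Mtm1 the shares were 0.335 and 0.319 without and 0.478 and 0.472 with dTAG-13, in F10 and F6 (chrX:71210766-71315295, plus strand), and Ocrl stood at 0.341 (F10) and 0.329 (F6) in the ctrl libraries and at 0.486 and 0.441 in the dTAG-13 libraries (chrX:47912455-47965866, plus strand). Both encode phosphoinositide phosphatases, mutated in a centronuclear myopathy and in Lowe syndrome. Without dTAG-13 the share of Fgf13 was 0.322 in F10 and 0.321 in F6, and with it 0.51 and 0.426 (chrX:59062145-59585572, minus strand), an intracellular fibroblast growth factor homologue that binds sodium channels. Hdac8 stood at 0.421 (F10) and 0.382 (F6) in the ctrl libraries and at 0.557 and 0.535 in the dTAG-13 libraries (chrX:102284639-102505148, minus strand); this deacetylase acts on the SMC3 subunit of cohesin. For Prrg1 the shares were 0.419 and 0.431 without and 0.56 and 0.548 with dTAG-13, in F10 and F6 (chrX:78449609-78583897, minus strand). Their log2 odds changes, from 0.75 to 0.90, were smaller than those of the genes above, and again no ctrl library reached a dTAG-13 library. The gene with the fewest fragments to pass was Heph, the ferroxidase hephaestin, with 46 to 67 fragments per library and Dom shares of 0.0545 and 0.087 in ctrl and 0.328 and 0.418 with dTAG-13 (log2 odds change 2.95 ± 0.54 (SE), adjusted p = 0.0128, edgeR). Counting error alone set the 95% Wilson interval of a single share at a median of ± 0.0525 for genes with at least 50 fragments in each library, and fragments carried no molecular identifiers.

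**Figure D2:**
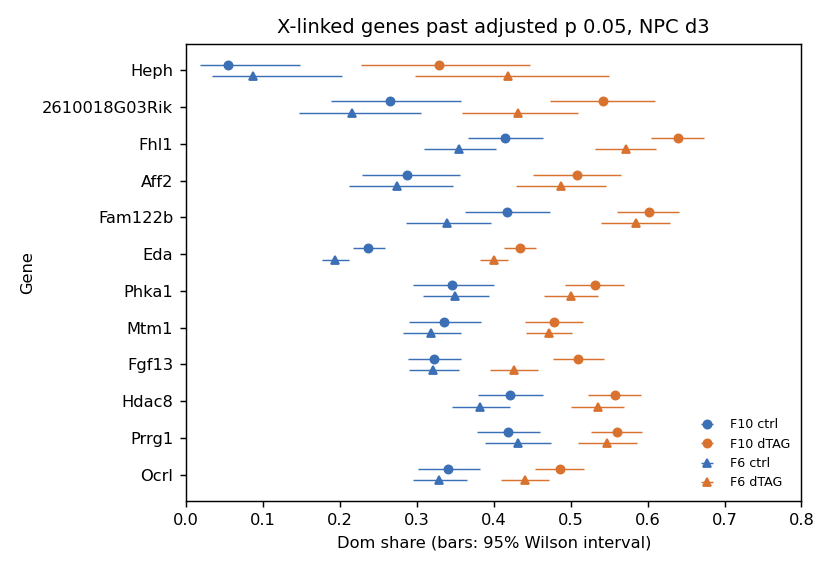
Dom share (horizontal axis, 0 to 0.8) of 12 of the 14 X-linked genes with an adjusted p under 0.05, 1 row a gene, circles for clone F10 and triangles for F6, blue for ctrl and orange for dTAG-13, bars for the 95% Wilson interval of each share. In every row both orange points lie to the right of both blue points, from Heph with an average rise of 0.303 to Ocrl with 0.128.

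Promoter sequence is shown for genes with the largest called rises and for genes with the lowest treated shares. Polycomb complexes are known to favour CG-rich promoters. The second group was chosen by its share with dTAG-13, not by its change. RefSeq promoters (GRCm38.p6, the mm10 assembly) matched 196 of the 246 genes. The 250 bases upstream of the start are given 5′ to 3′ on the gene's strand, with the dinucleotide CG in capitals. Of the 15 genes looked up in these groups, 8 had exactly 1 promoter entry, and only those were counted. Shown are the promoters with most and fewest CG among the counted genes of each group. These were Eda (level with Phka1) and Aff2 for the rises, and Lancl3 and 4930519F16Rik for the lowest shares.
Eda (chrX:99975356-99975605, plus strand, 19 CG): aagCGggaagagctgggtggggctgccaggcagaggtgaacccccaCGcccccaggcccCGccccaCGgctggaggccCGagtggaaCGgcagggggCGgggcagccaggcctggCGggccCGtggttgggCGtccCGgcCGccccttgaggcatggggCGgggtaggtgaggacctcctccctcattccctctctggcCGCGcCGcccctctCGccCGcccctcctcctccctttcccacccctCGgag
Aff2 (chrX:69360081-69360330, plus strand, 7 CG): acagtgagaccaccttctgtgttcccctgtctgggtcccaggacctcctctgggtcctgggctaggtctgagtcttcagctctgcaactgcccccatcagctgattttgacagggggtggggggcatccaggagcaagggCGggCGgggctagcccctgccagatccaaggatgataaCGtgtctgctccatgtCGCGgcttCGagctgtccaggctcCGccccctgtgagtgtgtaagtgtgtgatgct
Lancl3 (chrX:9199723-9199972, plus strand, 18 CG): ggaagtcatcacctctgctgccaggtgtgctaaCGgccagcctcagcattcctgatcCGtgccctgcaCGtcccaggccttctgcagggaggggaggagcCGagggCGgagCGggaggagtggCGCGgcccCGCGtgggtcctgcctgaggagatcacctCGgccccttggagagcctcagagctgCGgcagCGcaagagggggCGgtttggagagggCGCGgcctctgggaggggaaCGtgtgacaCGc
4930519F16Rik (chrX:103256606-103256855, minus strand, 0 CG): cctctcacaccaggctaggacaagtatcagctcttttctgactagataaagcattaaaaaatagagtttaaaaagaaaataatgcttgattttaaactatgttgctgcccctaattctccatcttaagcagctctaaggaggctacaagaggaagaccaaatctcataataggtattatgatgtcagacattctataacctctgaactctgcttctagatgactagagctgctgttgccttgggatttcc
Of all 32851 promoters in the table, 92.1% held at least 1 CG, with a median of 6, and the matched X-linked genes had a median of 12. At least as many CG as in Eda were present in 19.7% of all promoters, as in Aff2 in 46.3% and as in Lancl3 in 21.7%. The other promoters counted in these groups held 19 CG (Phka1), 17 (Fam122b), 14 (Atp6ap1) and 5 (Stard8). Among the counted genes the number of CG thus ranged widely in both groups, and those with the lowest treated shares lay on both sides of the median of the table. The genes without a single entry were not examined.

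Other X-linked genes had a low Dom share with dTAG-13. The Dom share of Atp6ap1 was 0.178 in F10 ctrl and 0.147 in F6 ctrl, and 0.23 and 0.198 with dTAG-13 (an accessory subunit of the vacuolar proton pump), and Lancl3 stood at 0.191 (F10) and 0.137 (F6) in the ctrl libraries and at 0.252 and 0.219 in the dTAG-13 libraries. For Klhl13 the shares were 0.225 and 0.277 without and 0.258 and 0.291 with dTAG-13, in F10 and F6, with at least 3392 fragments per library; Klhl13 is a substrate adaptor of a cullin ubiquitin ligase. The uninduced ctrl ES libraries had 0.226 and 0.197 for Atp6ap1 and 0.353 and 0.37 for Klhl13, in F10 and F6. The treated shares of Atp6ap1 were thus near those before Xist, and those of Klhl13 were below them. 4930519F16Rik stood at 0.178 (F10) and 0.177 (F6) in the ctrl libraries and at 0.267 and 0.222 in the dTAG-13 libraries. Without dTAG-13 the share of Stard8 was 0.192 in F10 and 0.122 in F6, and with it 0.315 and 0.265; the gene encodes a GTPase-activating protein with a lipid-binding domain. Of these 5 genes all but Klhl13 had treated shares above both untreated ones, and none passed the test.

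The genes with the most fragments did not pass the test. Pola1, the catalytic subunit of DNA polymerase alpha, had the most fragments of all (8562 to 11494 per library). Without dTAG-13 the share of Pola1 was 0.512 in F10 and 0.505 in F6, and with it 0.585 and 0.531 (log2 odds change 0.29 ± 0.22 (SE), adjusted p = 1.00, edgeR). Usp9x, a deubiquitinase, had shares of 0.527 and 0.549 in ctrl and 0.553 and 0.553 with dTAG-13, and did not pass. The long non-coding RNA Firre, which helps place the X at the nucleolus, had 0.548 and 0.461 in ctrl against 0.691 and 0.59 with dTAG-13. Both treated shares of Firre lay above both untreated ones, but those in F6 with dTAG-13 and in F10 ctrl were close to each other. It did not pass either (adjusted p = 0.801, edgeR). The smallest average changes among genes with at least 50 fragments were those of Usp11, 0.000247, Pdzd4, 0.00084, and Brcc3, 0.00123, each with a higher share in F10 and a lower one in F6. Usp11 and Brcc3 encode deubiquitinases; their Dom shares in F6 went from 0.498 to 0.472 and from 0.515 to 0.494.

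Across all 243 genes tested, the Dom share was higher with dTAG-13 in 210 in F10 and in 187 in F6, and 165 were higher and 10 lower in both clones. The median change per gene was 0.0934 in F10 and 0.0542 in F6. Among the 179 genes with at least 50 fragments in each library, 126 were higher and 8 lower in both clones. Changes in the 2 clones were correlated across genes (Pearson's r = 0.43, Spearman's rank coefficient = 0.43, 243 genes, which are not independent replicates), and with at least 200 fragments in each library r was 0.74 over 101 genes.

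**Figure D3:**
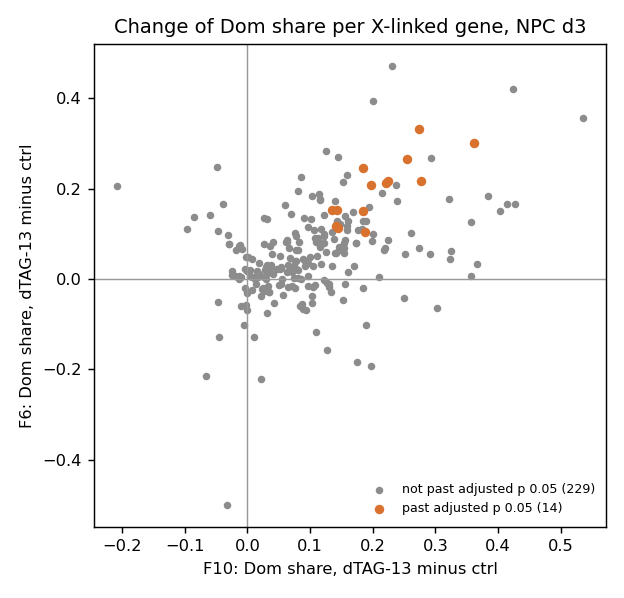
Change of the Dom share with dTAG-13 on NPC day 3 in clone F10 (horizontal axis) and clone F6 (vertical axis), 1 dot for each of 243 X-linked genes, orange for the 14 past an adjusted p of 0.05. Most dots, 165, lie in the upper right corner, where both clones were higher, and 10 lie in the lower left.

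The change in share came with more RNA from the Dom X in both clones. The Dom fragments of the 246 genes, per M autosomal fragments, were 3485 in F10 ctrl, 4430 in F10 with dTAG-13, 4482 in F6 ctrl and 5341 in F6 with dTAG-13, 27.1% higher with dTAG-13 in F10 and 19.2% in F6. Their Cast fragments were 3846 in F10 ctrl, 3572 in F10 with dTAG-13, 5320 in F6 ctrl and 5271 in F6 with dTAG-13, a difference of -7.11% in F10 and -0.927% in F6. Values of F6 ctrl lay above those of F10 with dTAG-13 for both alleles. The exact permutation test of either sum gave p = 0.667, where 2 against 2 libraries allow 0.333 at best. That test swapped libraries across clones and did not use the pairing, so its p-value carries the gap between clones and does not measure the differences within clones. Fewer cells with an active X and less RNA per cell cannot be told apart in such bulk libraries.

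Gene by gene, the level of the Dom allele had a median log2 change of 0.32 over the 243 X-linked genes, 202 of them above 0, and the Cast allele one of -0.10, 159 of them below 0. Autosomal genes had medians of 0.00813 and 0.00848. No gene passed the adjusted threshold for either allele (background 0% of 13017 genes). At an unadjusted p under 0.05, Dom was higher in 57 X-linked genes and lower in 0, 23.5% against 1.32% of autosomal genes, and Cast was higher in 1 and lower in 4. With a clone term for each stage, 13 X-linked genes passed for Dom, all higher, and 0 for Cast. Without the F10 dTAG-13 library the median Cast change was 0.03 and without the F6 ctrl library -0.01, while the median Dom change stayed between 0.26 and 0.41 with any 1 of the 4 libraries left out. The lower level of Cast thus rested on single libraries, and the higher level of Dom did not.

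**Figure D4:**
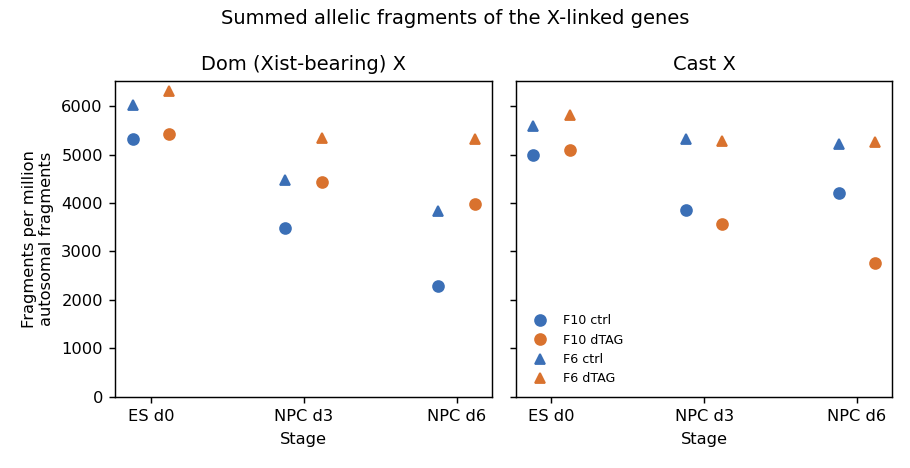
Summed Dom (left) and Cast (right) fragments of the 246 X-linked genes per M (mega) autosomal fragments (vertical axis, from 0) in uninduced ES cells and on NPC days 3 and 6, circles for F10 and triangles for F6, blue for ctrl and orange for dTAG-13. On day 3 each clone's Dom level is higher with dTAG-13, 3485 against 4430 in F10 and 4482 against 5341 in F6, and F10 lies below F6 on both alleles.

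The difference was largest in genes that other lines of the series silenced most. Genes were divided by the SPOC mutant clones without a degron, into 95 that kept more than 75% of their uninduced Dom share on NPC day 6 (silencing dependent on SPOC) and 148 that did not (independent of SPOC). All 14 genes past the threshold were SPOC-independent, and the median change of share was 0.134 in F10 and 0.0871 in F6 for these genes against 0.034 in F10 and 0.0144 in F6 for the SPOC-dependent ones. SPOC-dependent genes started high, with median shares of 0.521 and 0.507 in the ctrl libraries, and SPOC-independent genes went from 0.406 and 0.396 to 0.549 and 0.498. In both clones 1 of 148 SPOC-independent genes and 9 of 95 SPOC-dependent ones had a lower share with dTAG-13.

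The genes were also ranked by their Dom share in WT cells on the same day and cut into 3 classes of 81 genes. The class with the lowest WT share changed by a median of 0.15 in F10 and 0.108 in F6, the middle class by 0.102 in F10 and 0.034 in F6 and the highest by 0.034 in F10 and 0.0174 in F6. The lowest class held all 14 genes past the threshold, and 75 of its 81 genes were higher in both clones against 38 of 81 in the highest class. The ctrl shares followed the same order, with medians of 0.375 and 0.333 in the lowest class and 0.522 and 0.51 in the highest, and their part in the difference was not tested.

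Changes were smallest at the end of the chromosome farthest from Xist. The median change was 0.136 in F10 and 0.0759 in F6 for the 59 genes under 25 Mb from Xist, 0.106 in F10 and 0.0346 in F6 for the 76 at 25 to 50 Mb, 0.112 in F10 and 0.0797 in F6 for the 39 at 50 to 75 Mb and 0.0538 in F10 and 0.0313 in F6 for the 69 beyond 75 Mb. Genes past the threshold numbered 7, 4, 3 and 0 in these bins. In F6 the genes at 50 to 75 Mb changed as much as the nearest ones, so the change did not fall steadily with distance. By expression in the clones' uninduced ctrl ES cells, the genes were cut in the same way into 3 classes. The lowest class changed by 0.108 in F10 and 0.0715 in F6 and the highest by 0.0748 in F10 and 0.0297 in F6. From low to high the classes held 2, 2 and 10 genes past the threshold, and 19, 33 and 26 higher at an unadjusted p under 0.05. Such counts also depend on the fragments per gene, so they do not rank the classes by the size of the change. These divisions were not separated from each other.

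**Figure D5:**
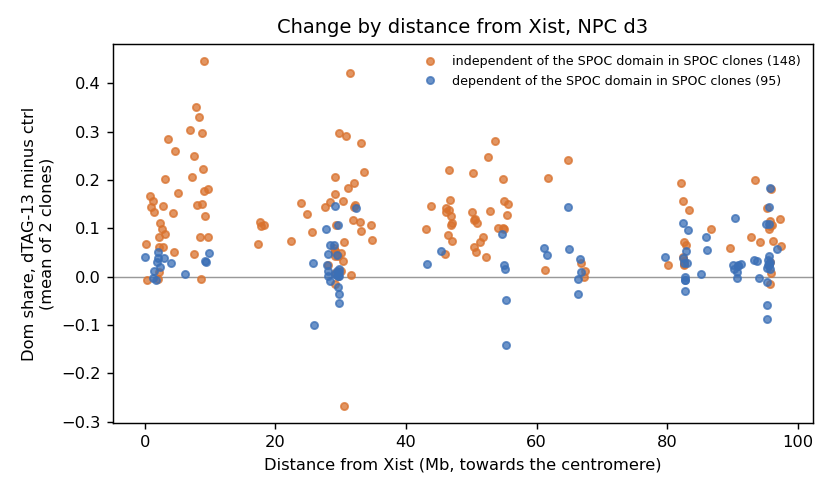
Mean change of the Dom share over both clones (vertical axis, dTAG-13 minus ctrl) against the distance of each gene from Xist in Mb (horizontal axis), orange for 148 genes silenced independently of the SPOC domain and blue for 95 dependent ones. Orange dots lie mostly above the line at 0, with higher values at the left end, and blue dots lie close to the line.

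Among X-linked regulators of pluripotency and MAPK signalling, 1 of 9 tested genes passed for a higher Dom share and all 9 were above 0, with a median log2 odds change of 0.18. Of all 243 X-linked genes tested 14 (5.76%) passed and 215 were above 0, with a median of 0.42. The regulator that passed was Fhl1, given above. Of X-linked chromatin regulators, 1 of 21 passed, Hdac8, and 19 were above 0, with a median of 0.24, so in both lists the shares of genes passed and above 0 were near those of the X-linked genes as a whole. Of 4 known escapees none passed and the median was 0.12: Kdm6a, an H3 demethylase, had shares of 0.569 and 0.551 in ctrl and 0.581 and 0.55 with dTAG-13, and Ddx3x, an RNA helicase, 0.526 and 0.517 against 0.554 and 0.536. Of 2 tested genes in the region around Xist none passed and 1 was above 0, with a median of 0.06. All 4 medians lay below that of the X-linked genes as a whole.

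Set against uninduced ES cells of the same clone and treatment, Dom shares were lower on day 3 without dTAG-13 and near their starting level with it. Without dTAG-13 the median gene kept 90.6% of its day 0 Dom share in F10 and 88.8% in F6, and 175 and 189 of 243 genes were below day 0. With dTAG-13 it kept 106% and 96.6%, and 77 and 157 genes were below. F10 with dTAG-13 thus stood above its own day 0 and F6 slightly below. The part of any loss of the Cast X in this difference was not tested. In the test of counts, 24 X-linked genes fell and 0 rose in ctrl (9.88%, against 0.407% lower and 0.376% higher of all genes tested, and 0.215% and 0.39% of autosomal ones), with a median log2 odds change of -0.34. With dTAG-13 none passed, 10 were higher and 11 lower at an unadjusted p under 0.05, and the median was 0.06 (0.123% of all genes higher and 0.0922% lower). Leaving out any 1 of the 4 libraries left 10 to 13 falls in ctrl, and without the F10 dTAG-13 library of day 3 the median with dTAG-13 was -0.10. With a clone term for each stage 40 fell and 1 rose in ctrl, and 3 fell and 2 rose with dTAG-13. The contrasts also span differentiation, which cannot be told apart from 3 days of Xist. Within each clone the ES and day 3 libraries also differed in the Dom percentage of chromosome 16, and the part of this difference was not tested.

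The same treatment was applied to the PCGF35 line with an intact SPOC domain. Its medians on NPC day 3 were 0.184 and 0.19 without and 0.307 and 0.333 with dTAG-13, so the X stayed far more silent there than in the SPOC mutant in either state. On the log2 odds scale the effect of dTAG-13 was smaller in the SPOC mutant by a median of 0.47, with 201 of 243 genes below 0. No gene passed the test of that difference, and 68 were lower and 2 higher at an unadjusted p under 0.05, 28% and 0.823% against 1.88% and 1.94% of autosomal genes. On the scale of the share itself the median difference was -0.0358 with limma, with 80 of 243 genes above 0. The lines also differed in their ctrl shares, which leave unlike room for a rise, and the part of this in the difference was not tested.

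By NPC day 6 the groups of the SPOC mutant had moved further apart. The day 6 medians were 0.328 and 0.402 without and 0.579 and 0.5 with dTAG-13, in F10 and F6. The ctrl libraries thus lay below day 3 in both clones and the treated ones did not move one way. The part of any cells that had lost the Cast X was not tested. The effect of dTAG-13 was larger on day 6 than on day 3 by a median of 0.58 (log2 odds), with 214 of 243 genes above 0. None passed the test of the difference, and 58 were higher and 0 lower at an unadjusted p under 0.05 (23.9% against 1.58% of autosomal genes). Without the F6 ctrl or the F6 dTAG-13 library of day 6, 17 and 8 genes passed, all higher on day 6.

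For total RNA, both alleles together, no gene passed the test, which took its spread from the 16 libraries of both clones. Of 15719 genes none passed edgeR's quasi-likelihood test (0%), 289 were higher and 159 lower at an unadjusted p under 0.05, and DESeq2 called 5 higher and 1 lower. In a fit of the 4 day 3 libraries alone 1263 genes passed, 578 of them higher. For X-linked genes the median log2 change was 0.10 over the 246 genes, 179 of them above 0, and 0.15 over 232 genes beyond Xist, against 0.01 over autosomal genes. Chromosome medians ran from -0.04 to 0.03 on the autosomes. Among the 246 genes 25 were higher and 1 lower at that unadjusted level, 10.2% higher against 1.54% of autosomal genes. The genes beyond Xist had a higher median than the genes with a ratio. The Dom allele gave 1.01% to 1.25% of their allelic fragments, and 0.701% to 1.29% in uninduced ES cells. These low percentages were present before Xist and do not measure silencing. The paper names a recombination event in the parental line among the reasons why some genes were not evaluated by allele.

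The genes with the smallest p in each direction, none past the threshold, were Gm10439, Thsd4 and Asic2 (higher) and Lrp1b, Fap and Ppfia2 (lower). Thsd4, a protein of extracellular microfibrils, had 69.6 and 80.6 CPM in ctrl and 137 and 127 CPM with dTAG-13 (log2 change 0.80 ± 0.13 SE, adjusted p = 0.653, edgeR). Asic2, an acid-sensing ion channel, had 41.6 and 40.8 CPM in ctrl and 86.8 and 74.1 CPM with dTAG-13, and the predicted gene Gm10439 0.19 and 0.687 CPM in ctrl and 1.44 and 3.12 CPM with dTAG-13. The shift of Thsd4 and Asic2 went the same way and to a like extent in both clones. Lrp1b, a receptor of the LDL receptor family, had 51.3 and 14.3 CPM in ctrl and 20.5 and 8.43 CPM with dTAG-13 (log2 change -1.10 ± 0.18 SE, adjusted p = 0.653, edgeR). Fap, a serine protease of stromal cells, had 4.63 and 0.258 CPM in ctrl and 0.258 and 0.156 CPM with dTAG-13, and Ppfia2, a liprin of synapses, 7.36 and 1.03 CPM in ctrl and 1.55 and 0.468 CPM with dTAG-13. For these 3 genes F10 ctrl was the high library, and the other libraries lay well below it.

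No member of any gene list passed for total RNA, where the median of all genes tested was 0.01. The list of PRC1 subunits and partners had 27 tested genes (median log2 change 0.01, 15 above 0) and that of PRC2 12 tested genes (median log2 change 0.00, 6 above 0). Auts2, a subunit of PCGF3 and PCGF5 complexes, had 1497 and 1072 CPM in ctrl and 1929 and 1197 CPM with dTAG-13, and Usp7, a deubiquitinase bound to PRC1, 556 and 594 CPM in ctrl and 546 and 563 CPM with dTAG-13. The PRC2 subunit Suz12 had 558 and 755 CPM in ctrl and 560 and 750 CPM with dTAG-13, and Jarid2 2301 and 6350 CPM in ctrl and 2299 and 5101 CPM with dTAG-13, with a wider gap between clones than between treatments. The list of SPEN corepressors had 15 tested genes (median log2 change -0.05, 7 above 0); Ncor1 had 885 and 1059 CPM in ctrl and 855 and 1020 CPM with dTAG-13 and Tbl1x, another subunit of the NCoR complex, 669 and 751 CPM in ctrl and 735 and 819 CPM with dTAG-13. In all 6 of these genes the ctrl and dTAG-13 values overlapped.

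Pluripotency markers separated the clones more than the treatments. The naive pluripotency list had 14 tested genes (median log2 change 0.25, 12 above 0), with a summed level of 803 and 1656 CPM in ctrl and 986 and 1780 CPM with dTAG-13, in F10 and F6. The list of core and formative pluripotency genes had 14 tested genes (median log2 change -0.16, 1 above 0), with 1277 and 756 CPM in ctrl and 1153 and 679 CPM with dTAG-13, and Sox2 on it was listed at 0 in all 4 libraries. F10 was lower in the first sum and higher in the second than F6, with and without dTAG-13. Esrrb, a naive factor, had 208 and 434 CPM in ctrl and 268 and 482 CPM with dTAG-13, Zfp42 250 and 561 CPM in ctrl and 280 and 550 CPM with dTAG-13, and the de novo DNA methyltransferase Dnmt3b 576 and 270 CPM in ctrl and 496 and 244 CPM with dTAG-13. Lef1, a Wnt-responsive factor, had 190 and 65.4 CPM in ctrl and 186 and 49.9 CPM with dTAG-13.

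The neural list had 14 tested genes (median log2 change -0.12, 4 above 0), with 6 of 20 below the filter. Sox1, Neurog2 and Hes5 were among them, listed at or near 0 on this day. Sox1, like Sox2, was listed at 0 in all 4 libraries, and whether the counting missed their fragments was not tested. The summed level of the neural list was 958 and 920 CPM in ctrl and 1086 and 996 CPM with dTAG-13. It was higher in both treated libraries than in either ctrl library, while the median gene was lower. Ncam1 had the highest level of the list in all 4 libraries. Its rise made up most of that of the sum in F10 and exceeded it in F6. Of the neural adhesion molecules, Ncam1 had 312 and 585 CPM in ctrl and 416 and 681 CPM with dTAG-13 and Cdh2 190 and 74.1 CPM in ctrl and 227 and 62.7 CPM with dTAG-13. Markers of other cells the cultures could hold were low: mesendoderm summed to 13.1 to 35.6 CPM over 10 genes and trophoblast to 30.3 to 43.1 CPM over 8. Fibroblast genes, which mark feeder cells, summed to 356 and 370 CPM in ctrl and 378 and 333 CPM with dTAG-13 over 12 genes, but Fn1, which other cell types express too, gave most of it, and the other 11 genes summed to 19.9 and 14 CPM in ctrl and 25.3 and 13.3 CPM with dTAG-13. The fibroblast markers Lum and Twist1 were below the filter, and the part of such cells in the results was not tested.

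Classical Polycomb targets stayed at low levels. Of 37 Hox genes 3 passed the filter, with sums of 1.14 and 2.58 CPM in ctrl and 1.29 and 3.28 CPM with dTAG-13, and of 40 bivalent transcription factor genes 17 did (median -0.02), with 42.7 and 37.5 CPM in ctrl and 38.5 and 34.7 CPM with dTAG-13. The list of ERK output genes had 14 tested genes (median log2 change -0.02, 7 above 0); Spred2 had 358 and 388 CPM in ctrl and 405 and 405 CPM with dTAG-13 and Etv5 246 and 239 CPM in ctrl and 255 and 249 CPM with dTAG-13. The list of p53 targets had 14 tested genes (median log2 change -0.22, 1 above 0), the list with the lowest median. Their summed level was 1416 and 1416 CPM in ctrl and 1067 and 1310 CPM with dTAG-13, lower with dTAG-13 in both clones. Trp53inp1 had 288 and 243 CPM in ctrl and 201 and 221 CPM with dTAG-13, and Eda2r, an X-linked receptor for an isoform of ectodysplasin, 188 and 286 CPM in ctrl and 133 and 247 CPM with dTAG-13; neither passed.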

How the data were processed

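Chromatin-associated RNA was extracted after feeders had been removed by pre-plating, and stranded total RNA libraries were sequenced as read pairs. Per the paper's methods, the authors removed rRNA reads with bowtie2 2.3.2, aligned with STAR 2.4.2a to mm10 with strain variants masked, split fragments by allele with SNPsplit and counted them per gene, by strand, with featureCounts (1.5.2 per the file headers). The deposited counts are whole fragments per gene, in total, for Cast and for Dom. The deposited Dom share is a fraction, which the authors gave for X-linked genes that they had filtered on allelic fragments in WT samples. Their other filter left out only genes expressed almost wholly from a single allele in uninduced ES cells. The share was recomputed from the counts and matched theirs. Of the ratio columns, 54 were not used.

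Counts were tested in R 4.3.3 with edgeR 4.0.16 (quasi-likelihood, TMM, Benjamini-Hochberg over all genes, adjusted p under 0.05). Allelic tests compared Dom with Cast counts within each library, and Dom and Cast levels and total counts were tested over libraries, in genes with a mean of at least 10 allelic fragments (allelic) or past edgeR's filter on low counts (total). The 16 libraries of the clones entered the day 3 fits with clone as a block, and those of both degron lines the fit of the line difference. The clones are the paired unit, since treated and untreated cells of a clone were cultured in parallel. In log2 CPM their deviations from the group means correlated at 0.805 between ctrl and dTAG-13 on day 3, and at 0.221 to 0.909 over all group pairs. In the Dom share of X-linked genes the correlation between ctrl and dTAG-13 on day 3 was 0.299. The paper states that clone F6 held some cells with a single X chromosome and was sub-cloned before sequencing. The clones differed beyond counting noise (chi-square per degree of freedom 47.5 and 47), so each counted as a sample. The allelic fit of the 4 libraries alone used edgeR's older quasi-likelihood fit, since the newer trend could not be estimated. limma 3.58.1 and DESeq2 1.42.0 served as alternatives. Scripts were tested on simulated data.

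The members, lists and comparisons were chosen with earlier results of these data known. By rule the text names the engineered genes, the 10 largest called rises and 5 falls with at least 50 fragments per library (2 genes past the threshold are not reported here by name), the 3 genes with most fragments, the 5 with the lowest treated share, the 3 with the smallest change, the 3 genes of smallest p per direction for total RNA, and the called and 2 to 4 highest members of each list. After the values were seen, examples were kept to 2 per list and to none for the lists of mesendoderm, trophoblast, fibroblast, Hox, bivalent and Xist-region genes, and the classes by WT share were added. Promoters were RefSeq entries for GRCm38.p6. Each share's interval is a Wilson interval at 95% and covers counting error only.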

Additional observations from a re-analysis of the deposited data

How the results depend on the processing

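The number of X-linked genes past the threshold on day 3, 14 with the clone as a replicate block, was 9 without the block, 29 with a block for each stage, 61 in the 4 libraries alone, 50 with the X-linked genes fitted alone, 0 with limma on the share and 0 on the log2 odds, and 2 and 2 without both libraries of F10 or of F6 (chosen after seeing the data). It was 14 in all 58 libraries, 12 with at least 50 fragments, 16 without a minimum, and 0 to 15 with 1 library left out (0 without F10 dTAG-13). The cause was not tested. Every one of these calls was a rise. The mean difference of the median share, 0.0781, ran from 0.0621 to 0.0834 over other summaries and was 0.0411 and 0.115 without F10 or F6. With a block for each stage the counts were 5 for dTAG-13 against day 0 (0 before), 41 for ctrl against day 0 (24 before), 4 for the day and 5 for the line difference, 13 for the Dom level and 9 for total RNA, each of the last 4 from 0. The block for each stage was added after seeing the data for the line difference and the Dom and Cast levels. In the 4 libraries alone they were 65 for the Dom level, 9 for the Cast level and 1263 for total RNA, with 256 and 351 autosomal genes beside the first 2. With the X-linked genes alone they were 51 for ctrl against day 0, 3 for the day and 19 for the line difference, and limma gave 3 for ctrl against day 0. DESeq2 called 6 genes for total RNA, and without both F6 libraries edgeR called 1. With 1 library left out the counts ran 10 to 13 for ctrl against day 0, 0 to 17 for the day, 0 to 3 for the line and 0 to 1 for total RNA. A block on the replicate number of the PCGF35 line left the line difference at 0. Size factors of DESeq2, TMM from autosomal genes and no filter on low counts left the counts they were tried on as they were.

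Of the named genes, allelic changes kept their direction and side of the threshold in 288 fits, lost the call in 99, gained it in 5 and reversed in 12, and those in total RNA in 313, 0, 22 and 28. Without both F10 libraries the log2 changes turned to -0.15 for Usp11, -0.0700 for Pdzd4, -0.12 for Brcc3 and -0.00591 for Kdm6a (odds), and to -0.0497 for Zfp42, -0.0189 for Spen and -0.0172 for Pcgf3. Cdh2 turned to 0.22 without both F6 libraries, 0.11 without the block, 0.0223 in the 4 libraries alone and 0.12 in all 58. Pcgf3 turned to -0.00801 in the 4 libraries alone, -0.0148 with DESeq2 size factors and -0.0143 in DESeq2. With 1 day 3 library left out, the ranges that crossed 0 were, for the odds, Usp11 -0.0834 to 0.11, Pdzd4 -0.19 to 0.20, Brcc3 -0.20 to 0.21 and Kdm6a -0.11 to 0.17, and for total RNA Zfp42 -0.28 to 0.41, Dnmt3b -0.47 to 0.10, Ncam1 -0.0595 to 0.71, Spen -0.14 to 0.20, Jarid2 -0.92 to 0.69, Ncor1 -0.27 to 0.13, Cdh2 -0.45 to 0.44, Pcgf3 -0.0273 to 0.0296, Lef1 -0.54 to 0.0674 and Pcgf5 -0.0689 to 0.40. None of these genes had passed the test. Depth limits single genes: the 95% Wilson half-width of a share reached 0.327.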

Other observations

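The separation of the treated from the untreated SPOC mutant cells was already present, at a smaller size, after 1 day of Xist in ES cells. The median Dom share was 0.476 and 0.483 without and 0.508 and 0.512 with dTAG-13, in F10 and F6, so both treated libraries lay above both untreated ones. In the line with an intact SPOC domain the day 1 medians were 0.342 and 0.324 without and 0.417 and 0.399 with dTAG-13. No test was run on day 1.

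On the same side of Xist, 40 genes with allelic counts are not in the deposited ratio table. On NPC day 3 their median Dom share was 0.401 in F10 ctrl, 0.345 in F6 ctrl, 0.5 in F10 with dTAG-13 and 0.53 in F6 with dTAG-13, at a median of 14.5 to 23.5 fragments. The log2 odds were higher with dTAG-13 in 31 of them with a median change of 0.58, none passed edgeR's test, and 10 were higher and 0 lower at an unadjusted p under 0.05.

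The Dom percentage of chromosome 16 differed between libraries of the same clone. In uninduced ES cells F10 had 33.5% without and 43.3% with dTAG-13, against 51.7% and 51.6% on NPC day 3. F6 had 50.3% and 51% in uninduced ES cells, 31.1% and 34.3% on NPC day 3 and 26.2% and 27.8% on day 6. The summed RNA of the chromosome on day 3, per M autosomal fragments, was 33333 in F10 ctrl and 45507 in F6 ctrl. Chromosomes 8, 11 and 12 stood away from equal shares in all 4 day 3 libraries, at 35.6%, 68.7% and 34.1% Dom in F10 ctrl.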
